A study of Mus musculus with 8 samples.

Results

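The Myc probes were 482 different DNA sequences, designed around binding sites of the transcription factor Myc, out of 122095 different sequences on a microarray that was stained for UV damage. They were taken as every spot with a printed sequence whose name contained Myc, which gave 5000 of 175866 spots. That rule uses names and no measured value, but the set was chosen with earlier results of these data known. The spots carried 250 names, each with a forward and a reverse sequence at 10 spots per orientation. Of the sequences, 464 had 10 Myc spots and 18 had 20. A further 590 spots of 145 of these sequences stood under other names and entered the averages, so that each sequence rested on 10 to 42 spots.

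A mouse antibody against cyclobutane pyrimidine dimers (CPDs), diluted 1:400, and a mouse antibody against 6-4 photoproducts (6-4PPs), diluted 1:80, were each applied to 2 UV-treated and 2 untreated arrays, which makes 8 arrays in 4 groups. The labelled organism, mouse, is where the antibodies were raised. The study's stated purpose was to obtain antibody signal for short sequences. What was stained was DNA on a glass array; no Myc protein was measured in the data used here. Nothing in the sources used here gives the UV dose, the staining steps or how the second strand was synthesised. The labels do not say what separated the arrays of a group, so p-values measure only the spread between these arrays, which may be technical.

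UV light joins neighbouring pyrimidines of one strand, so a lesion needs a dipyrimidine step, which is TT, TC, CT or CC. In a CPD a four-membered carbon ring links the bases, and TT is the best known site; in a 6-4PP a single bond links them, and TC and TT are the best known sites. Myc, a basic helix-loop-helix leucine zipper protein that drives growth genes, binds with its partner Max to the E-box CACGTG and to relatives such as CATGTG and CACGCG. The core CACGTG reads the same on both strands, and because pyrimidines and purines alternate in it, it holds no dipyrimidine step on either strand. Steps therefore arise where the bases around the core, or a changed core, bring pyrimidines together.

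Each probe was 60 bases long. The last 45 bases were the same in all Myc probes and held 0 dipyrimidine steps on both strands, so only the first 15 bases differed. The sequences that the results turn on are shown by those 15 bases, 5′ to 3′ on the printed strand, to which the shared end is joined. Strand partners hold the same site as reverse complements. Capitals mark the bases of a step, as pyrimidines where the step lies on the printed strand and as purines where it lies on the complement strand. A context such as GTTG names a step with the base before and after it, read 5′ to 3′ on its own strand. In a longer run of pyrimidines, the label of a probe names the first step only. The probe labelled GCTT thus also holds a TT, and the probe labelled GCTC also holds a TC. The sequences with the highest levels and those nearest a class median follow a naming rule, and the others were added, after their values were seen, to show single-base steps between them.
Shared end of all Myc probes: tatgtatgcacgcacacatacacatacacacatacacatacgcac
Probe with CACGTG and no step: gtatgcgtgcacgtg
Probe with CACGTG and CC on the complement strand: tatgcgcacgtGGcg
Probe with CACGTG and a printed GTTG step: tatgcgcacgtgTTg
Its strand partner with a complement GTTG step: tatgcAAcacgtgcg
Probe with CACGTG and a printed GTTA step: tatgcacacgtgTTa
Its strand partner with a complement GTTA step: tatgcatAAcacgtg
Probe with CACGTG and a printed ATTC step: atgcaTTCacgtgcg
Its strand partner with a complement ATTC step: gtatgcgcacgtGAA
Probe with CACGTG and a printed ATCC step: atgcaTCCacgtgcg
Probe with CACGTG, printed ATTC and complement ACCA steps: tatgcaTTCacgtGG
Probe with CACGTG and a printed GCTC step: atgcacacgtgCTCg
Probe with CACGTG and a printed GCTT step: atgcacacgtgCTTg
Probe with CACGTG and a printed GTTC step: atgcacacgtgTTCg
Probe with CACGTG and a printed GTCA step: tatgcgTCacgtgtg
Probe with CACGTG and a printed ATCA step: tatgcaTCacgtgtg
Probe with CACGTG and ATCA on both strands: atgcaTCacgtGAtg
Probe with CACGTG, printed ATCA and complement ACTC steps: tatgcaTCacgtGAG
Probe with CACGTG, printed ACTC and complement ATCA steps: tatgcaCTCacgtGA
Probe with the form CACGAG of the E-box: atgcaCCacGAGGcg
Probe with the form CACGCG of the E-box: atgcaTCacgcGGtg
Probe with the form CATGTG, read on the complement strand: gtatgcGGcacatGG

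The Myc set was poor in steps. Of its 482 sequences, 68 had 0 steps on both strands, 160 had 1, 174 had 2, 58 had 3, 16 had 4 and 6 had 5. CC was the most common step, present in 316 sequences, followed by TC in 183, CT in 85 and TT in 42. TT lay on the printed strand of 21 sequences and on the complement strand of 21, and 236 of the 250 names paired a site of 11 bases with its reverse complement. By E-box form, read on either strand, 189 sequences held CACGTG, 132 CATGTG, 112 CACGCG, 30 CACGAG and 19 CATGCG. For the description, each sequence was put into 1 of 6 classes in a fixed order, and these classes were chosen with earlier results of these data known. The first class held 42 sequences with TT. Of the rest, 102 had TC after A, 32 had TC after C and 33 had TC after G. Then came 205 with only CT or CC, and 68 with no step.

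Same-numbered arrays of both antibodies within a UV condition shared the behaviour of single spots. Over the 5000 Myc spots, the difference of replicate 1 minus replicate 2 correlated between the antibodies with r = 0.77 on UV arrays and r = 0.796 on non-UV arrays, as a description across spots of the same arrays. Over all 175866 spots, the same quantity correlated between UV and non-UV arrays of the CPD antibody with r = 0.00362. Of 125 spots at the scanner ceiling on the first CPD UV array, 77 were at the ceiling on the first 6-4PP UV array as well, and the CPD UV arrays shared 1. The labels do not say whether slides were stained more than once. Comparisons of UV with non-UV within an antibody do not pair these arrays, and the difference between the antibodies is given with the arrays that share spots as a block too.

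UV raised the staining of the Myc probes less than that of the array as a whole. With the CPD antibody the median Myc intensity was 1230 and 1055 on the non-UV arrays and 1715 and 1706 on the UV arrays, while the median of all sequences went from 1231 and 1042 to 3733 and 3388. With the 6-4PP antibody the Myc medians were 1528 and 1281 without UV and 2268 and 2302 with UV, beside 1511 and 1231 against 6628 and 6624 for all sequences. The UV and non-UV arrays of an antibody did not overlap. The Myc median rose 1.5-fold with the CPD antibody and 1.63-fold with the 6-4PP antibody, against 3.14-fold and 4.86-fold for all sequences. On the log2 scale and relative to the array median, the Myc set lay at 0.0088 ± 0.014 (SD, n = 2 arrays) without UV and at -1.06 ± 0.093 with UV for the CPD antibody. For the 6-4PP antibody it lay at 0.037 ± 0.029 and at -1.54 ± 0.016. By exact two-sided permutation, p was 0.333 in both stainings, which is the smallest p that 2 arrays against 2 allow, here and in every comparison of class values below. All intensities include the unsubtracted background of the array.

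Single sequences were tested with limma over all 122095 sequences. The fit pools the spread of all 8 arrays as if they were independent. Its p-values thus treat deviations shared between the antibodies as separate ones. Relative to the array median, UV raised 8 Myc sequences and lowered 460 with the CPD antibody, beside 39.5% and 40.2% of all sequences. With the 6-4PP antibody it raised 23 and lowered 413, beside 36.4% and 39.9% of all sequences. Fitted on the arrays of 1 antibody alone, UV raised 8 and lowered 459 (CPD), and raised 18 and lowered 410 (6-4PP). Of all sequences, 81% and 72.4% passed in those fits, in either direction. A fall here is a smaller rise than that of the array's typical sequence: with no centring, 436 Myc sequences were higher with the CPD antibody (92% of all sequences) and 452 with the 6-4PP antibody (96%). Under quantile normalization, which forces all arrays to one distribution of intensities, 37 were past the threshold with the CPD antibody, all lower, which is 7.68% of the Myc sequences beside 6.91% of all. With the 6-4PP antibody 46 were, 1 higher and 45 lower, which is 9.54% beside 5.37%. All 8 sequences raised by CPD staining held TT. Of the 23 raised by 6-4PP staining, 15 held TC after A, 2 held TC after C and 6 held TT.

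The 68 Myc sequences without a step served as a floor. Their median intensity on UV arrays was 1634 ± 11.8 (SD, n = 2) with the CPD antibody and 2008 ± 23.4 with the 6-4PP antibody, against 1144 ± 123 and 1381 ± 193 without UV. They thus rose 1.43-fold and 1.46-fold with UV although they hold no dipyrimidine. Their median minus that of the sequences without a step elsewhere on the array, also 482 in number, was -0.0032 to 0.068 log2 units on the 8 arrays. In the fit centred on all sequences without a step, a choice made after the data were seen, UV raised 69 Myc sequences with the CPD antibody, beside 70.5% of all sequences. With the 6-4PP antibody it raised 202, beside 86% of all sequences. Leaving out either CPD non-UV array, which leaves 1 array in that group, lowered the first count. Fitted on the arrays of 1 antibody alone, UV raised 47 Myc sequences with the CPD antibody and 175 with the 6-4PP antibody. Of all sequences, 71.3% and 84.4% were past the threshold in those fits, in either direction. All values given below as "above the floor" are log2 differences from the median of the 68 sequences on the same array.

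With the CPD antibody, the TT class had the highest median of the 6 classes, and smaller rises were found in sequences without TT. Their median on UV arrays was 3227 ± 276 (SD, n = 2), 0.98 ± 0.11 above the floor. The medians of the other classes were 0.15 ± 0.016 above the floor for TC after A, 0.084 ± 0.024 for TC after C, 0.023 ± 0.0060 for TC after G and 0.043 ± 0.0063 for CT or CC. On the non-UV arrays the TT class stood at 1143, beside 1144 for the sequences without a step. In the fit centred on sequences without a step, 38 of the 42 TT sequences rose, as did 24 of the 102 with TC after A and 5 of the 32 with TC after C, beside the 70.5% of all sequences. Fitted on the arrays of 1 antibody alone, these counts were 33, 10 and 3. The 8 sequences with TC after A on both strands and no TT were 0.33 ± 0.077 above the floor. Of the 205 with only CT or CC, 2 rose: tatgcacacgtgCTa, with a lone GCTA at 2001 and 1917 on the UV arrays, and tatgcaCCCacatGG, at 2469 and 2213. They are named after their values were seen. Fitted on the arrays of 1 antibody alone, 1 of the 205 rose, and with the median over spots 0 did.

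TT sequences differed in CPD staining with the bases around TT and with the strand that held it. Printed TT after A, found in 5 sequences that all held TTC, had a median of 7883 ± 154, 2.27 ± 0.039 above the floor. Printed TT after G, in 15 sequences, had a median of 3876 ± 239, 1.25 ± 0.079 above it. The same contexts on the complement strand gave 2687 ± 119 (0.72 ± 0.054, 5 sequences) and 1999.5 ± 62.4 (0.29 ± 0.035, 15 sequences). The order of these medians was thus printed ATT, printed GTT, complement ATT and complement GTT, with gaps between neighbours larger than the SD of the arrays. Single sequences overlapped on the complement strand, where the highest GTT stood at 0.57 and the lowest ATT at 0.52. The base after TT differed too, as the GTT sequences included GTTG, GTTA and GTTC. Elsewhere on the array, lone printed GTTA was 2.04 ± 0.084 above the sequences without a step there, and lone printed GTTG 1.21 ± 0.053. The base before TT, the base after it and its place along the probe cannot be told apart here. TT after C, with 1 sequence per strand, stood at 1.55 ± 0.065 on the printed and 0.43 ± 0.11 on the complement strand.

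The highest CPD signal belonged to tatgcaTTCacgtGG. Its intensities were 1219 and 1014 without UV and 9245 and 8475 with UV for the CPD antibody, and 1568 and 1298 against 10468 and 10617 for the 6-4PP antibody. Every UV array lay far above every non-UV array of its antibody. Relative to the array median, CPD staining rose by 1.34 log2 units (SE 0.078, limma adjusted p = 2.44e-05) and 6-4PP staining by 0.61 (SE 0.078, limma adjusted p = 0.000442). The other 4 sequences with printed ATTC, in which the C of the TTC is the first base of the core or lies just before it, had CPD intensities between 6637 and 9248 on the UV arrays. These 5 held the first 5 places of CPD signal in the Myc set.

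The lone printed GTTA of tatgcacacgtgTTa stood next. Its CPD intensities were 1167 and 1095 without UV and 6248 and 5591 with UV, whereas its 6-4PP intensities were 1501 and 1398 against 2614 and 2532. Its UV arrays lay above its non-UV arrays with both antibodies, by far more with the CPD antibody. Its CPD rise relative to the array median was 0.74 (SE 0.10, limma adjusted p = 0.000639), and its 6-4PP value was -1.45 (SE 0.10, limma adjusted p = 4.57e-05). Relative to sequences without a step, its 6-4PP staining rose by 0.31 (SE 0.11, limma adjusted p = 0.0288). Its strand partner tatgcatAAcacgtg, which has the same TT on the complement strand, reached 2500 and 2347 with the CPD antibody. The 6 sequences with a lone printed GTTG had a CPD median of 3806 ± 267, 1.22 ± 0.091 above the floor, and the 6 with a lone complement GTTG had 1988 ± 19.1, 0.28 ± 0.0035 above it.

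Among 17 strand partners with TT on 1 strand only, CPD staining was higher with the TT on the printed strand in 17 of 17 on both UV arrays. The median of printed minus complement was 1.02 and 1.00 on the UV arrays and 0.016 and 0.027 on the non-UV arrays. The groups do not overlap, and p was 0.333 by exact two-sided permutation. For tatgcgcacgtgTTg the CPD UV intensities were 4609 and 3630, and for its partner tatgcAAcacgtgcg they were 2155 and 2030. The corresponding 6-4PP values were 2462 and 2367 against 2118 and 2127. In this pair the TT also lies at a different place along the probe, so strand and position cannot be told apart.

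With the 6-4PP antibody, the TC class split by the base before the step. On UV arrays the 102 sequences with TC after A had a median of 5715 ± 151 (SD, n = 2), 1.51 ± 0.021 above the floor. The 32 with TC after C had 4715 ± 50.5 (1.23 ± 0.0013). The 33 with TC after G had 2225 ± 16.3 (0.15 ± 0.0063), close to the 2166 ± 15.5 (0.11 ± 0.0064) of sequences with only CT or CC. The TT class had 2517 ± 16.0 (0.33 ± 0.026). Without UV the medians of all 6 classes lay between 1381 and 1426. In the fit centred on sequences without a step, all 102 sequences with TC after A and all 32 with TC after C rose with the 6-4PP antibody. Of the others, 23 of 42 with TT rose, 9 of 33 with TC after G and 36 of 205 with only CT or CC, beside the 86% of all sequences. Fitted on the arrays of 1 antibody alone, these 3 counts were 20, 4 and 17.

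GTCA and ATCA beside the same E-box differed widely in 6-4PP staining. tatgcgTCacgtgtg had 6-4PP intensities of 2166 and 2520 on the UV arrays, and tatgcaTCacgtgtg, which differs by G6A counted from 1 at the 5′ end of the printed strand, had 7435 and 7488. The CPD intensities of the pair were 1662 and 1830 against 1998 and 1907. Over the 5 pairs in which the base before a printed TC changed from G to A, by G6A or G7A, 6-4PP staining was higher in 5 of 5 pairs on both UV arrays. The median rise was 1.74 and 1.58 on the UV arrays and 0.022 and -0.075 on the non-UV arrays. The same change before a TC on the complement strand, C14T in the printed sequence, gave 1.39 and 1.34 over 5 pairs. In CPD staining the rise was 0.19 ± 0.067 on the printed strand and 0.096 ± 0.015 on the complement strand.

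6-4PP staining was higher for TC on the printed strand than on the complement strand. The 6 sequences with a lone printed ATCA had a 6-4PP median of 7473 ± 131 on UV arrays, 1.90 ± 0.0084 above the floor, and the 8 with a lone complement ATCA had 5286 ± 149, 1.40 ± 0.058 above it. Among strand partners with TC and no TT, the median of printed minus complement was 0.51 and 0.46 on the 6-4PP UV arrays and 0.022 and 0.10 on the non-UV arrays (exact two-sided permutation p = 0.333). For TC after A alone, 23 of 24 partners were higher on the printed strand on both UV arrays, and for TC after C all 10 of 10 were. The 17 TT partners differed by 0.33 and 0.38 in 6-4PP staining. As a rule, the place of the step along the probe changes with its strand between partners, so strand and position cannot be told apart. No test compared the strand difference of TT with that of TC.

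Sequences with TC after A on both strands were among the highest in 6-4PP signal. The 8 such sequences without TT had a median of 10466 ± 91.3 on UV arrays, 2.38 ± 0.0042 above the floor. The highest was atgcaTCacgtGAtg, the E-box with T on both flanks, at 1424 and 1153 without UV and 13408 and 14518 with UV. Its CPD intensities were 1208 and 1044 against 2119 and 2110.5. It rose by 1.16 relative to the array median with the 6-4PP antibody (SE 0.092, limma adjusted p = 6.07e-05) and lay at -0.74 with the CPD antibody (SE 0.092, limma adjusted p = 0.000367). Next by mean intensity came tatgcaCTCacgtGA at 13549 and 14347 on the 6-4PP UV arrays, then tatgcaTTCacgtGA, which holds TT, at 12037 and 15590. After gtatgcaTCacgtGA, at 14292 and 12592, stood tatgcaTCacgtGAG at 11742 and 12021. Across the set, the 6-4PP intensity averaged over the UV arrays ran from 1784 to 13963, a range of 7.83-fold, beside 1.71-fold on the non-UV arrays. For the CPD antibody the ranges were 6.05-fold and 1.57-fold.

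Sequences with only CT or CC had medians of 0.043 (CPD) and 0.11 (6-4PP) above the floor, with differences between contexts. The 19 with a lone printed ACCA were 0.088 ± 0.0038 above the floor in CPD staining and 0.16 ± 0.0065 in 6-4PP staining. The 11 with a lone printed GCCA were 0.0015 ± 0.019 and 0.049 ± 0.020 above it, and the 8 with a lone printed GCTG 0.045 ± 0.025 and 0.045 ± 0.0064. Some contexts with more than 1 CC had higher 6-4PP values. The 9 with printed CCC after A and no other step were 0.29 ± 0.019 above the floor, the 6 with ACCA on both strands 0.29 ± 0.0047, and the 3 with printed CCC after A and ACCA on the complement strand 0.51 ± 0.11. In CPD staining these were 0.049 ± 0.064, 0.13 ± 0.044 and 0.15 ± 0.0082 above it. A least-squares regression over all 482 sequences, with the 4 step types summed over both strands, gave 0.90 ± 0.057 log2 units per TT, 0.11 ± 0.012 per TC, 0.0045 ± 0.013 per CT and 0.022 ± 0.0061 per CC on CPD UV arrays. On 6-4PP UV arrays the coefficients were 0.29 ± 0.0011 for TT, 1.00 ± 0.00033 for TC, 0.045 ± 0.0082 for CT and 0.11 ± 0.0029 for CC. The step counts accounted for 55.6 ± 3.8% of the variance between Myc sequences on CPD UV arrays and 69.5 ± 0.46% on 6-4PP UV arrays, and for under 1% on each non-UV array. Replicate arrays correlated across the 482 sequences with r = 0.898 (CPD) and 0.980 (6-4PP) with UV, and with -0.032 and 0.022 without UV; sequences are not independent replicates.

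Neither staining followed the number of steps in strict order, as both medians rose up to 3 steps and were lower at 4. Medians on CPD UV arrays were 1634 at 0 steps, 1697 ± 0.38 at 1, 1748 ± 7.9 at 2, 1814 ± 31.4 at 3, 1747 ± 12.8 at 4 and 1793 ± 11.9 at 5. The 6-4PP medians were 2008 at 0 steps, 2145 ± 15.9 at 1, 2478 ± 75.6 at 2, 5222 ± 133 at 3, 4729 ± 31.1 at 4 and 6366 ± 229 at 5. Only 6 sequences have 5 steps.

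Among the E-box forms, CACGAG stood apart in 6-4PP staining. The strand opposite CACGAG carries a TC, read CTCG, which can lie on the printed or the complement strand of the probe. All 30 of its sequences rose with the 6-4PP antibody in the fit centred on sequences without a step, in which 86% of all sequences rose. Over the Myc set, the TC after C class with steps on 1 strand alone stood at 1.36 ± 0.0052 (printed) and 0.66 ± 0.0017 (complement), with 10 sequences each. The 6-4PP median of the 30 CACGAG sequences on UV arrays, over both strands, was 4751 ± 63.2. It was 2283 ± 20.5 for CACGTG, 2234 ± 14.2 for CATGTG, 2192 ± 25.9 for CACGCG and 2248 ± 57.0 for CATGCG. The median of CACGAG minus CACGTG was 1.05 and 1.06 on the 6-4PP UV arrays and 0.0063 and 0.064 on the non-UV arrays, for which the exact two-sided permutation p was 0.333. In CPD staining it was 0.036 and 0.020 on the UV arrays and 0.012 and 0.032 on the non-UV arrays, which overlap (exact two-sided permutation p = 0.667), and the UV minus non-UV difference of this value turned its sign under quantile normalization, with the scanner column and with class means. The other 3 forms differed from CACGTG by -0.059 to 0.024 on average over the UV arrays of either antibody. These medians pool sequences of unlike step make-up. With printed TC after A and at most CT or CC on the complement strand, 6-4PP values were farther apart. They were 1.88 ± 0.0095 above the floor for CACGTG (16 sequences), 1.61 ± 0.022 for CATGTG (12) and 1.52 ± 0.046 for CACGCG (11). The 3 with CACGAG stood at 2.05 ± 0.022 and the 1 with CATGCG at 1.56. These differences were not tested. Among sequences without a step, CACGTG (28 sequences), CATGTG (20) and CACGCG (20) stood between -0.029 and 0.029 of the floor in both stainings. The representative of CACGAG, atgcaCCacGAGGcg, had 3394 and 3544 on the 6-4PP UV arrays and 1755 and 1731 on the CPD UV arrays.

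Beside CACGTG, a T or C just before the core makes a step with the core's first C, while other steps lie farther out. Each of the 189 sequences was sorted by the base before the core on both strands. With A or G on both sides (67 sequences) the 6-4PP median on UV arrays was 2050.5 ± 14.8, with C but no T on a side (66) it was 2264 ± 16.1, and with T on a side (56) it was 6266 ± 533. The median of T minus A or G was 1.53 and 1.69 on the 6-4PP UV arrays and -0.0011 and 0.013 on the non-UV arrays, and 0.22 and 0.20 on the CPD UV arrays. The median of C minus A or G was 0.14 on both 6-4PP UV arrays, and 0.031 and 0.043 on the CPD UV arrays. For these 4 comparisons the UV and non-UV arrays do not overlap (exact two-sided permutation p = 0.333 each). With T on both sides, the 8 sequences had a 6-4PP median of 12096 ± 293 and a CPD median of 2162 ± 112.

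6-4PP staining beside CACGTG also differed by the second base before the core. Among sequences with no TT and no TC on the complement strand, AT before the core gave 1.95 ± 0.061 above the floor in 6-4PP staining (11 sequences) and CT gave 2.04 ± 0.031 (3 sequences). GT gave 0.20 ± 0.046 (4 sequences), near the 0.18 ± 0.032 of AC (13 sequences). TC before the core, which makes the step TCC, gave 1.61 ± 0.0092 (6 sequences). In CPD staining AT gave 0.27 ± 0.054, CT 0.40 ± 0.036 and GT 0.060 ± 0.032.

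Pairs of Myc sequences that differ at a single base numbered 1201. In 236 of them 2 steps were gained and none lost, and in 0 was exactly 1 step gained. The other comparisons below therefore swap one step for another. Changing CC to TC on the printed strand raised 6-4PP staining by a median of 1.18 and 1.24 on the UV arrays over 67 pairs, with 63 of 67 higher on both. After A, all 54 of 54 pairs were higher (1.33 ± 0.025), and after G 9 of 13 were (0.14 ± 0.034). On the complement strand the rise was 0.85 and 0.79 over 70 pairs, 0.94 ± 0.027 after A and 0.073 ± 0.029 after G. In CPD staining the same changes gave 0.10 ± 0.0041 and 0.043 ± 0.041. Without UV the medians lay between -0.016 and 0.020 in both stainings.

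Changing CT to TT on the printed strand raised CPD staining by 1.28 and 1.17 over 18 pairs, and TC to TT raised it by 1.22 and 1.15 over 10 pairs. On the complement strand the rises were 0.41 and 0.30 (18 pairs) and 0.32 and 0.29 (10 pairs). Changing CC to TT on the printed strand turned TCC into TTC in 5 pairs and raised CPD staining by 2.11 and 2.16, and 6-4PP staining by 0.62 and 0.65. An example is C7T from atgcaTCCacgtgcg to atgcaTTCacgtgcg, with CPD UV intensities of 1804 and 1776 before and 7774 and 7229 after the change. The complement strand gave 0.58 and 0.63 in CPD staining and -0.072 and -0.14 in 6-4PP staining. CPD differences were above 0 on both UV arrays in 18 of 18, 10 of 10 and 5 of 5 printed pairs. The exact two-sided permutation p against the non-UV arrays was 0.333 for each of these medians.

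Around a CTC that follows CACGTG, neighbouring substitutions moved the 2 stainings apart. The start, atgcacacgtgCTCg, had CPD UV intensities of 1633 and 1617 and 6-4PP UV intensities of 4679 and 4680. With C14T (atgcacacgtgCTTg) the CPD values were 4975 and 4620 and the 6-4PP values 7577 and 7768, so both were higher. With C12T (atgcacacgtgTTCg) the CPD values were 3572 and 3180, higher than the start, and the 6-4PP values were 3021 and 2479, lower than it. Of 18 pairs of this kind, this was the lowest in 6-4PP staining, at -0.77. This probe stood below the probes with TTC after A in both stainings. Printed ATTC reached 8599 to 15590 on the 6-4PP UV arrays and GTTC 2479 to 3021. The upper end belonged to tatgcaTTCacgtGA, which also holds ATCA on the complement strand. GTTC is held by 1 sequence with 10 spots, and its TTC lies after the core and before a G. The TTC of the ATTC sequences lies before the core or at its start. The base before, the base after and the place along the probe therefore cannot be told apart.

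The UV effect differed between the antibodies in 347 Myc sequences by the interaction term of limma. Relative to the array median it was larger with the CPD antibody in 255, beside 33.6% of all sequences, and larger with the 6-4PP antibody in 92, beside 18.1%. With the arrays that share spots as a block, the counts were 324 and 105, beside 51674 and 26685 of all 122095 sequences. Of the 68 sequences without a step, 68 were among the 324. With the replicate number as a block the counts were 269 and 97, beside 42518 and 22725 of all sequences. Leaving out the first CPD non-UV array, which leaves 1 array in that group, lowered the count toward CPD. Under quantile normalization 0 Myc sequences passed, beside 0% of all sequences. Without a block, the count toward CPD includes 57 of the 68 sequences without a step, and the array medians rose by different folds with the 2 antibodies. Centred on sequences without a step, 13 had the larger effect with the CPD antibody, beside 10.6% of all sequences, and 140 with the 6-4PP antibody, beside 36.9%. All 13 held TT; of the 140, 102 held TC after A and 31 TC after C, which is all 102 and 31 of 32 of those classes. The remaining 7 were 5 with TT, 1 with TC after G and 1 with only CT or CC.

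Lone contexts could be set beside the same contexts elsewhere on the array, where the base make-up of the rest of the probe differs. Printed GTTG was 1.22 ± 0.091 above the floor in CPD staining in 6 Myc sequences and 1.21 ± 0.053 above the corresponding floor in 113 other sequences. Printed ATCA was 1.90 ± 0.0084 in 6-4PP staining in 6 Myc sequences and 1.95 ± 0.045 in 112 others. The complement contexts were farther apart, with 1.40 ± 0.058 for ATCA in 8 Myc sequences and 1.00 ± 0.021 in 116 others, and 0.28 ± 0.0035 for GTTG in 6 Myc sequences and 0.40 ± 0.029 in 117 others in CPD staining. Printed GTCA stood at 0.15 ± 0.0098 in 3 Myc sequences and 0.28 ± 0.021 in 83 others in 6-4PP staining. These differences between Myc and other probes were not tested.

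At the low end, single arrays stood apart for some sequences. tatgcaTCCacgtGG had CPD intensities of 2299 and 1113 without UV and 1709 and 1789 with UV, so that its non-UV arrays lay on both sides of its UV arrays before centring. It was the lowest by CPD change, at -1.52 relative to the array median (SE 0.35, limma adjusted p = 0.00598). The first non-UV array of the 6-4PP antibody was high for it as well, at 2991 beside 1317. Its 6-4PP UV intensities were 6352 and 6802. The same high first non-UV array was seen in tatgcgCCatgtgtg, which was lowest by 6-4PP change at -2.14 (SE 0.22, limma adjusted p = 0.000153). Its 6-4PP intensities were 2275 and 1262 without UV and 1883 and 1858 with UV.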

How the data were processed

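Fluorescence of 8 arrays was analysed, 2 for each antibody with and without UV. The deposited files hold spot intensities on a linear scale, per the file headers. The adjusted intensity used here equals the authors' scanner intensity times a constant of the array, divided by the median of the spot's neighbourhood, as the values of the deposited columns show, with no background subtracted; no source used here names the software. Spots of one sequence were averaged as log2 intensity, and each array was centred on its median over 122095 sequences. limma 3.58.1 (R 4.3.3) fitted 4 group means with 4 residual degrees of freedom, with Benjamini-Hochberg adjustment at 0.05; class values are medians over sequences per array, compared by exact permutation. Python 3.11.15, numpy 2.4.6, pandas 2.3.3 and the R package data.table (1.17.8) did the rest. Tested on simulated data for the CPD comparison over 122095 sequences, the fit recovered 22% of 50 sequences changed by 0.5 log2 units and 100% at 1, 2 and 3. The simulated noise was independent between arrays, with the same spread for all sequences of a group. Deviations shared between the antibodies and single outlying arrays were thus not part of it.

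The Myc sequences, classes and lists were chosen with earlier results of these data known. Named sequences are, per antibody, the 5 highest and 5 lowest past the threshold whose UV arrays lie on one side of the non-UV arrays, the 3 largest differences each way between antibodies, the sequence nearest the median CPD change of each E-box or flank class of at least 10, and single-base pairs at the lower median and both ends. Pairs gaining exactly 1 step did not occur, so step swaps were used instead. Alternatives covered the scanner column, centring, quantile normalization, an offset of 100, saturated spots, averaging, the dimmest 25%, the block and leaving out each array. The 2 arrays per group limit the precision, with 10 to 42 spots behind each sequence. Replicate numbers pair arrays of the 2 antibodies through shared spot deviations, not UV with non-UV.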

Additional observations from a re-analysis of the deposited data

Results flagged for a closer look

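The UV effect differed between the antibodies, by the interaction term of limma relative to the array median, in 347 Myc sequences, which is 72% of them beside 51.7% of all sequences. The differences toward the CPD antibody that the naming rule picks were 2.19 for tatgcacacgtgTTa, 1.71 for tatgcgcacgtgTTg and 1.68 for tatgcacatgtgTTg, each with a lone printed TT after G. Those toward the 6-4PP antibody were -1.90 for atgcaTCacgtGAtg, -1.73 for tatgcaTCacgtGAG and -1.70 for tatgcaCTCacgtGA, each with TC on both strands.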

How the results depend on the processing

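The class, step, flank and pair values could not cross the threshold in any setting, as their exact two-sided permutation p cannot fall below 0.333. Of them, 529 kept their direction over the alternatives and 31 reversed. The cause was not tested. With no centring the antibody difference passed in 138 Myc sequences (28.6%, beside 34.4% of all sequences), and the set's median change was 0.59 (CPD) and 0.71 (6-4PP). With quantile normalization 37 (CPD), 46 (6-4PP) and 0 (difference) passed, beside 6.91%, 5.37% and 0% of all sequences. With the dimmest 25% of sequences left out, which kept 114 Myc sequences, 110, 81 and 89 passed (96.5%, 71.1% and 78.1%, beside 73%, 65% and 53.2% of all sequences). Centred on sequences without a step, the CPD count ran from 39 to 59 with 1 array left out. With the replicate block the counts were 468, 438 and 366 (beside 80.9%, 77.6% and 53.4% of all sequences), which changed none of these 3 counts by over 1.5 times; with spot-sharing pairs as a block the difference passed in 429 (89%, beside 64.2% of all sequences). Reversed values, given as UV minus non-UV on the log2 scale, were as follows. Quantile normalization gave CT coefficients of -0.017 (CPD) and -0.019 (6-4PP), a CC coefficient of -0.010 (CPD), CACGAG minus CACGTG of -0.14 (CPD), CATGCG minus CACGTG of 0.041 (6-4PP), CC to TC on the complement strand of -0.016 (CPD), and strand differences of -0.096 for TC (CPD) and of -0.066 (CPD) and -0.032 (6-4PP) for CT or CC. The scanner column gave -0.018 for CACGAG (CPD) and 0.026 for CATGCG (6-4PP). Leaving out saturated spots gave -0.0070 for CT and -0.011 for CC to CT on the complement strand, both CPD. The CPD value was -0.0029 for CT with the median over spots and -0.0025 for CACGAG with averaging before the log. Complement-strand terms for CT were -0.0046 (CPD) and -0.012 (6-4PP). Class means gave -0.063 for CATGTG and -0.15 for CACGAG (CPD). With 1 array left out, the ranges were -0.0084 to 0.0096 for CT (CPD), -0.0036 to 0.016 for CACGAG (CPD), -0.041 to 0.029 for CATGCG (6-4PP), -0.0026 to 0.081 (CPD) and -0.0088 to 0.043 (6-4PP) for CC to CT on the complement strand, and -0.075 to 0.023 for TC to TT there (6-4PP). With no centring, 18 named sequences turned from a fall to a rise. The lowest by CPD gave 0.13, 0.19, 0.19, 0.21 and 0.23, the lowest by 6-4PP 0.14, 0.16, 0.22, 0.22 and 0.28, and those nearest a class median 0.54, 0.55, 0.58, 0.57, 0.61, 0.54, 0.55 and 0.71. Of the values of named sequences over the alternatives, a further 36 were weaker, 32 of them under quantile normalization and 4 with averaging before the log. The other 577 stayed the same. With 2 arrays a group, no class comparison can pass the exact test.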
